A study of Mus musculus with 45 samples.

Results

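The mitochondrial ribosome is built from protein genes of the nucleus, and 77 such genes were followed here in cultured mouse limb buds exposed to bisphenol A. They are the protein-coding genes whose symbol starts with Mrps or Mrpl and a number, 77 of 19058 protein-coding genes listed, with 29 Mrps genes named for the small subunit and 48 Mrpl genes named for the large subunit. RNA was measured by sequencing in forelimb buds of CD1 mouse embryos, an outbred stock, taken on gestation day 13. The forelimbs were pooled, those of male and female embryos together, and kept in organ culture for 3, 24 or 48 h with DMSO, the vehicle, or with 10 or 50 µM bisphenol A (BPA), a plastics monomer with weak estrogenic activity. Every group held 5 libraries, which makes 45 in all, and every culture was given DMSO or BPA in the same medium, so no group was left out of culture. Whether a group's libraries stem from different litters or days of culture is not stated in the labels. A p-value here therefore measures only the spread between these libraries, which may be technical.

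Mitochondria keep a ribosome of their own, which makes the respiratory chain proteins that mitochondrial DNA encodes. Its ribosomal RNAs come from mitochondrial DNA, while all of its proteins are encoded in the nucleus, made in the cytosol and imported. Many of these proteins have counterparts in the bacterial ribosome and the others exist only in mitochondria. Loss of mitochondrial ribosomal proteins in mice and people impairs oxidative phosphorylation, on which contracting muscle depends, whereas early cartilage relies heavily on glycolysis.

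Each library held between 17540925 and 27119650 counts. Prrx1, a transcription factor of limb mesenchyme, stood at 354 to 753 CPM, a gene's counts scaled to the library's total with TMM factors. Tbx5, the forelimb factor, stood at 199 to 345 CPM, and Pitx1, the hindlimb factor, at 1.61 to 7.22 CPM. One library stood apart for the mitochondrial ribosomal protein genes: in replicate 3 of 10 µM BPA at 3 h, 74 of the 77 genes were above their own mean over all libraries, and the median deviation was 0.44 on the log2 scale. In the other 44 libraries that median lay between -0.20 and 0.17. For tests between groups that use this library, the medians and the genes named are given with and without it.

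All 77 genes were transcribed in every library, with between 76 and 1809 counts, and all passed the filter on low counts in every comparison. Per kilobase of deposited gene length, Mrpl34, a small core protein of the large subunit (bL34m), had the highest level at 55.0 CPM per kb (mean of 45 libraries). Mrpl28 and Mrpl2 followed at 34.7 and 32.7 CPM per kb. Mrps35, a mitochondria-specific protein of the small subunit, had the lowest level, 3.43 CPM per kb, beside Mrpl47 at 3.49 and Mrps10 at 3.60 CPM per kb. The median was 9.30 CPM per kb for the Mrps genes and 15.25 CPM per kb for the Mrpl genes. Without division by length these medians were closer, at 27.4 and 31.6 CPM. Mrpl34 has the shortest deposited length of the 77 genes, 607 bases, and Mrps35 the longest, 8631 bases. The ranking per kilobase therefore depends on the deposited length and is not a ranking in CPM.

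Levels varied little over the study. The highest group mean exceeded the lowest by under 1.5-fold in 73 of the 77 genes (94.8%), against 62.6% of the 7423 genes in the same range of CPM. The 4 genes past 1.5-fold were Mrpl23 (1.63-fold), Mrpl34 (1.63-fold), Mrps28 (1.58-fold) and Mrpl13 (1.51-fold). These folds include the library that stood apart and are not given without it. In its group, 10 µM BPA at 3 h, Mrpl23, Mrpl34 and Mrpl13 had log2 fold changes of 0.20, 0.23 and 0.12 against vehicle. Within groups, the coefficient of variation had a median of 10.2% over the 77 genes and of 11.1% over the genes in the same range of CPM.

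The summed levels of the small and the large subunit genes moved together from library to library, and other gene sets were not compared. In 8 of 9 groups the same library was highest in the summed level of both, and in 7 of 9 groups the same library was lowest. The large-subunit sum was 1.89 to 2.05 times the small-subunit sum in every library. At 3 h in vehicle the Mrps genes summed to 857 ± 60.6 CPM and the Mrpl genes to 1694 ± 110 CPM (mean ± SD, n = 5), which is 0.0875% and 0.173% of all counts. At 48 h in 50 µM BPA these sums were 777 ± 14.98 and 1508 ± 29.3 CPM, the latter the lowest of the 9 group means for the Mrpl genes.

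**Figure D1:**
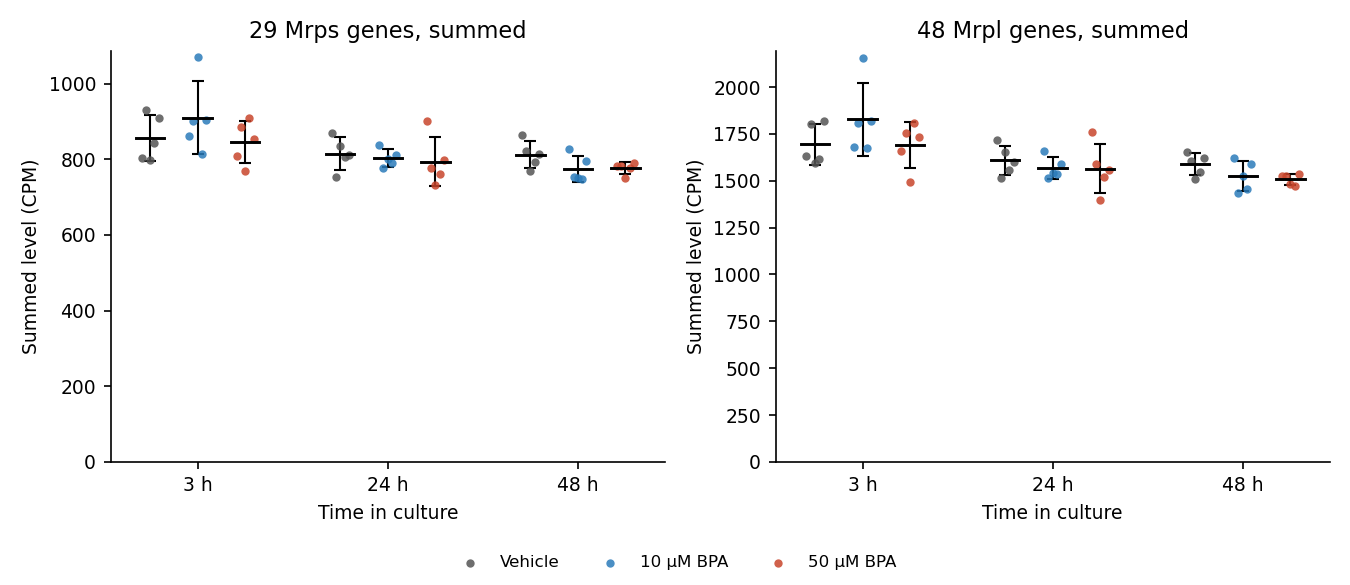
Summed level in CPM of the 29 Mrps genes (left) and the 48 Mrpl genes (right) in each library, by time in culture and treatment. Points are libraries, lines are group means and bars are ± 1 SD (n = 5). In 10 µM BPA at 3 h, replicate 3 reached 1070 CPM for the Mrps genes and 2156 CPM for the Mrpl genes, above every other library.

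At 48 h, 50 µM BPA lowered 2 of the 77 genes and raised none. Mrpl48, a mitochondria-specific protein of the central protuberance of the large subunit (mL48), fell 1.36-fold. Mrps7, a protein of the head of the small subunit (uS7m), fell 1.18-fold. The count of 2 is 2.6% of the genes, when 9.18% of all 16732 genes tested were called at an adjusted p under 0.05 (edgeR, Benjamini-Hochberg), 5.3% lower and 3.88% higher. A called gene is one below that threshold, and only such a gene is said to have risen or fallen.

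Mrpl48 stood at 37.6, 31.6, 31.3, 36.5 and 35.4 CPM in the 5 vehicle libraries of 48 h. In 50 µM BPA it stood at 27.8, 24.3, 25.6, 25.2 and 24.7 CPM. All 5 exposed libraries were below all 5 vehicle libraries. The log2 fold change was -0.44 ± 0.08 (SE, edgeR adjusted p = 0.00155), and the gene stayed called when any single library was left out, with adjusted p between 0.00163 and 0.00586. Mrpl48 overlaps Rab6a, a gene on the opposite strand, over 892 bases. The sources used here do not state whether counting used the strand, so the reads of shared bases cannot be told apart. Rab6a itself had a log2 fold change of -0.02 ± 0.06 (edgeR adjusted p = 0.908).

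Mrps7 stood at 44.2, 46.9, 41.6, 42.1 and 44.5 CPM in vehicle and at 36.9, 38.9, 36.0, 36.2 and 38.97 CPM in 50 µM BPA at 48 h. These groups did not overlap either. The log2 fold change was -0.24 ± 0.06 (edgeR adjusted p = 0.0178). The call was lost without replicate 2 of vehicle (adjusted p = 0.0523, 1 member called) and without replicate 4 of 50 µM BPA (adjusted p just above 0.05, 1 member called). Mrps7 overlaps Gga3 and Mif4gd on the opposite strand by 127 and 119 bases, and their log2 fold changes were -0.08 ± 0.06 and -0.17 ± 0.11 (edgeR adjusted p = 0.415 and 0.369).

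Mrps25 (mS25, a mitochondria-specific protein of the small subunit) and Mrpl23 (uL23m, at the exit of the peptide tunnel) came next by p. Mrps25 stood at 29.2, 32.2, 26.7, 28.7 and 28.96 CPM in vehicle and at 24.4, 25.3, 26.1, 25.2 and 23.98 CPM in 50 µM BPA. Mrpl23 stood at 18.2, 20.6, 18.6, 17.1 and 19.3 CPM in vehicle and at 16.2, 18.1, 14.2, 13.0 and 14.2 CPM in 50 µM BPA. The libraries of Mrps25 did not overlap, and for Mrpl23 a single exposed library lay within the vehicle range. Neither passed the test on its own 10 libraries, with adjusted p of 0.0626 and 0.0657 in edgeR's quasi-likelihood test.

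Whether equal replicate numbers pair libraries is not stated in the labels. In this comparison the 5 pairs of equal number had weakly correlated deviations (0.104 to 0.211), so a block was also fitted. With the replicate number as a block, 4 genes were called, all lower: Mrpl48 and Mrps7 as before, and Mrpl23 and Mrps25 with edgeR adjusted p of 0.0195 and 0.0474. DESeq2 called 3, Mrpl48, Mrps7 and Mrpl23. The share of all genes called by the block or by DESeq2 was not counted, so these counts cannot be set against 9.18%. Over all 77 genes the median log2 fold change was -0.08, with 13 genes above zero (16.9%), and over all genes tested it was -0.0049 with 49% above zero. For 75 of the 77 genes the 95% interval of the change lay within 1.5-fold in either direction, as it did for 11021 of the 16732 genes tested. Genes with bacterial counterparts and mitochondria-specific genes had medians of -0.08 and -0.07, with 1 called gene in each of these classes, of 46 and 30 genes.

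**Figure D2:**
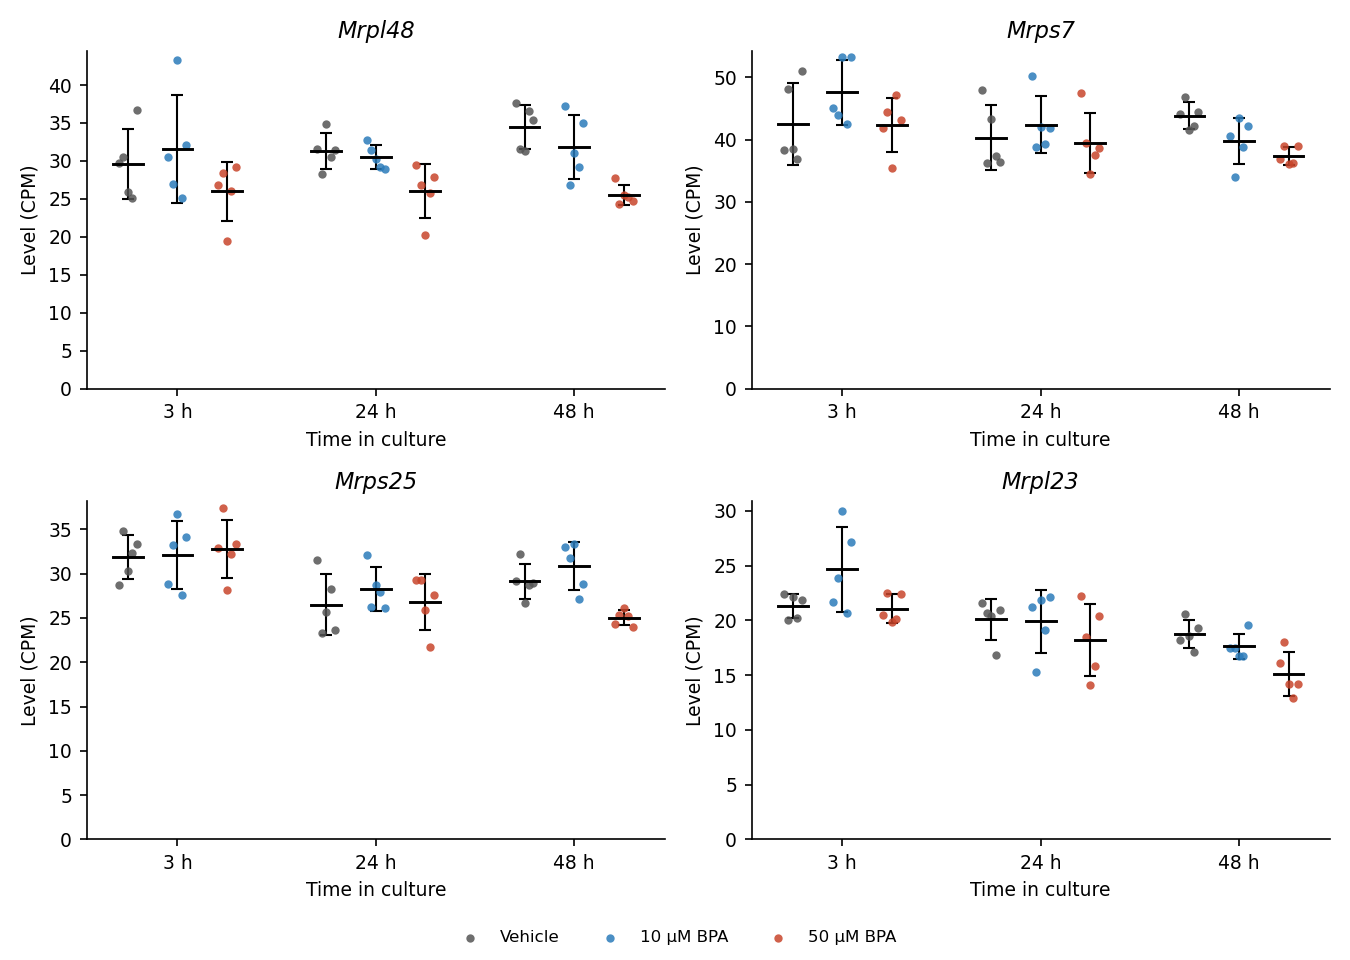
Level in CPM of Mrpl48, Mrps7, Mrps25 and Mrpl23 in every library, by time in culture and treatment. Points are libraries, lines are group means and bars are ± 1 SD (n = 5). At 48 h the 50 µM libraries of Mrpl48 lie between 24.3 and 27.8 CPM, below the vehicle libraries at 31.3 to 37.6 CPM.

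Markers of some cell types and stress genes differed between these groups of 48 h as well. Their counts are to be read against the 5.3% of all genes called lower and the 3.88% called higher. For cartilage, limb mesenchyme, proliferation and erythroid markers, the outcome in these groups is not given here. Of 15 tested muscle markers 13 were lower, with a summed level of 1990 to 3243 CPM in 50 µM BPA and 4648 to 7034 CPM in vehicle. Of 12 macrophage markers 6 were lower, with sums of 139 to 257 against 259 to 339 CPM. The integrated stress response was followed with 18 genes, 13 of them higher, with sums of 1549 to 1907 against 1014 to 1303 CPM. No marker of these lists had a median under 0.1 CPM in either group of 48 h. In RNA of whole limb buds fewer cells of a type and less RNA per cell cannot be told apart. The part of these differences in the levels of Mrpl48 and Mrps7 was not tested.

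The sequences before the start sites of both genes called at 48 h are shown because mitochondrial protein genes often carry sites for the activators NRF1 and GABP close to their start. Mrpl34, the gene with the largest fall over time in vehicle, was added after its values were seen. Each run is the 250 bases before a RefSeq start site (build GRCm38.p6), 5′ to 3′ on the strand of the gene. Capitals mark a match to any of the letters searched on both strands: GCATGCGC (NRF1), CCGGAAG (GABP and other ETS factors), AAGATGGC (YY1), TGATGCAA (C/EBP and ATF factors) and CACGTG (E-box).
Mrpl48, chr7:100608302-100608551, minus strand: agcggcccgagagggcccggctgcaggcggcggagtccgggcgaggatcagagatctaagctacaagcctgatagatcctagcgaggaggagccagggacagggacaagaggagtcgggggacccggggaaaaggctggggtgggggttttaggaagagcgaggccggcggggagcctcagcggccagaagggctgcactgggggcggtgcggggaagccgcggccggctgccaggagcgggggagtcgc
Mrps7, chr11:115603890-115604139, plus strand: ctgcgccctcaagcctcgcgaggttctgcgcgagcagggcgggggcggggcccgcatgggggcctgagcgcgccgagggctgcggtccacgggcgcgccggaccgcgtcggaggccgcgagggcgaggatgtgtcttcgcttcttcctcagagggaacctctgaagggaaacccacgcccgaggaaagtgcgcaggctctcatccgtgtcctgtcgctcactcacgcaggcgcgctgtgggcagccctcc
Mrpl34, chr8:71464676-71464925, plus strand: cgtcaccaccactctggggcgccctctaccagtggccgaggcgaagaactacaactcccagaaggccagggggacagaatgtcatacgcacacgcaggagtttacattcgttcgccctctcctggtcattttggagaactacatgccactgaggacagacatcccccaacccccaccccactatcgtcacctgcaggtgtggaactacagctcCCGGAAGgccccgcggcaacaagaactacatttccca
The Mrpl48 run, the first of 4 listed for that gene, ends where the deposited gene begins, and the fourth listed holds the ETS letters. The Mrps7 run lies mostly inside the deposited gene, whose start at chr11:115603925 is upstream of that of RefSeq. Mrpl34 holds the ETS letters starting 37 bases before its start site, and the printed runs of Mrpl48 and Mrps7 hold none of the letters searched.

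RefSeq promoters were listed for 68 of the 77 genes, 74 in all. The ETS letters stood in 17 of these 74 (23.0%) and in 6.91% of the 32851 promoters of all genes. The NRF1 letters stood in 8 (10.8%) and in 2.26% of all promoters, and the YY1 letters in 4 (5.41%) and in 1.56%. The E-box stood in 7 (9.46%) and in 6.02%, and the C/EBP and ATF letters in 0 of the 74 and in 0.791% of all. Counted by gene, the E-box stood in 5 of the 68 members and in 6.86% of 27025 genes. By gene the ETS, NRF1 and YY1 letters stood in 17, 8 and 4 of the 68, and in 7.83%, 2.56% and 1.83% of all genes. No searched motif contains another. A match is only a match of letters, and its absence from these windows says nothing of a factor.

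At 3 and 24 h none of the 77 genes was called with 50 µM BPA. At 3 h edgeR called 0 of 77, with 1.41% of 16988 genes called, and DESeq2 also called 0. An unadjusted edgeR p under 0.05 was found for 2 of the 77 and for 2155 of the 16988. At 24 h edgeR and DESeq2 again called 0, with 3.47% of 16841 genes called by edgeR. The unadjusted edgeR p was under 0.05 for 6 of the 77 and for 2652 of the 16841. The median log2 fold changes of the 77 genes were -0.02 and -0.04, and the 95% interval lay within 1.5-fold for 76 genes at 3 h and 74 at 24 h. At 24 h without replicate 1 of vehicle, 1 gene was called.

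Mrpl48 had a log2 fold change of -0.19 ± 0.12 at 3 h and of -0.27 ± 0.10 at 24 h (edgeR adjusted p = 0.535 and 0.182), beside -0.44 at 48 h. Mrps7 stood at -0.01 ± 0.10 and -0.03 ± 0.10 at 3 and 24 h (edgeR adjusted p = 0.978 and 0.931). Whether the effect of 50 µM BPA differed between times was tested with interaction terms over all 45 libraries. None of the 77 genes differed in any of these 3 terms by edgeR or DESeq2, with 0.634% of 19247 genes called between 24 and 3 h, 0% between 48 and 24 h and 1.95% between 48 and 3 h. Between 48 and 3 h, 3 of the 77 had an unadjusted edgeR p under 0.05, beside 2263 of the 19247. Between 24 and 3 h and between 48 and 24 h it was 1 each, beside 1886 and 645 of the 19247. For Mrpl48 the effect at 48 h minus that at 3 h was -0.25 ± 0.16 (edgeR adjusted p = 0.611), with a 95% interval from -0.57 to 0.08.

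With 10 µM BPA none of the 77 genes was called at 3, 24 or 48 h by edgeR or DESeq2. Of all genes, 0% of 17009 were called at 3 h, 0% of 17060 at 24 h and 0.00591% of 16925 at 48 h. The unadjusted edgeR p was under 0.05 for 2, 1 and 6 of the 77, and for 974, 786 and 980 of all genes tested. At 3 h the median log2 fold change was 0.09 and 66 of the 77 genes were above zero (85.7%). Without the library that stood apart, replicate 3 of 10 µM BPA, the median was 0.03 and 47 genes were above zero. Mrps12 (uS12m, at the decoding site) had the smallest p at 3 h, with 19.1, 20.2, 15.8, 13.9 and 18.9 CPM in vehicle and 21.2, 21.1, 28.7, 19.1 and 19.8 CPM in 10 µM BPA. The groups overlap, and replicate 3 of 10 µM BPA was highest. Its log2 fold change was 0.32 ± 0.13 (edgeR adjusted p = 0.7), and 0.20 ± 0.11 without that library (edgeR adjusted p = 0.999).

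At 48 h the median in 10 µM BPA was -0.07 with 14 genes above zero (18.2%), and in 50 µM BPA it was -0.08 with 13 above zero. Both doses are compared with the same 5 vehicle libraries, so a shift of those libraries moves both medians. Mrpl48 stood at 37.2, 26.8, 31.1, 29.2 and 35.01 CPM in 10 µM BPA at 48 h, a range that overlaps both the vehicle and the 50 µM libraries. Its log2 fold change at 10 µM was -0.12 ± 0.09 (edgeR adjusted p = 0.939).

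Between the doses themselves, 1 gene of 77 differed at 48 h and none at 3 or 24 h. The share of all 19247 genes called by edgeR was 0.623% at 3 h, 0.8% at 24 h and 3.14% at 48 h, the last made up of 2.15% lower and 0.998% higher. Mrps25 was lower in 50 than in 10 µM BPA at 48 h. It stood at 32.99, 31.8, 33.4, 27.2 and 28.9 CPM in 10 µM and at 24.4, 25.3, 26.1, 25.2 and 23.98 CPM in 50 µM BPA. These groups did not overlap. The log2 fold change was -0.30 ± 0.09 (edgeR adjusted p = 0.0472), but the call was lost in 9 of the 10 fits that leave out a library of these groups, all except the one without replicate 4 of 10 µM BPA. Mrps25 overlaps Nr2c2 on the opposite strand by 4770 bases, and Nr2c2 had -0.01 ± 0.17 (edgeR adjusted p = 0.995). Mrpl48 had -0.32 ± 0.11 between the doses at 48 h (edgeR adjusted p = 0.15), with a 95% interval from -0.55 to -0.09.

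At 3 h, 72 of the 77 genes were lower in 50 than in 10 µM BPA, with a median of -0.10 and 0 called by edgeR and 1 by DESeq2. The unadjusted edgeR p was under 0.05 for 13 of the 77 and for 2070 of all 19247 genes tested. Without replicate 3 of 10 µM BPA the median was -0.05, and 22 of the 77 were above zero. Mrpl54, a mitochondria-specific protein of the large subunit, had the smallest p, at -0.54 ± 0.15 (edgeR adjusted p = 0.1), and at -0.41 ± 0.15 without that library (edgeR adjusted p = 0.426). At 24 h the median was 0.0016, with 0 called by edgeR or DESeq2. The unadjusted edgeR p was under 0.05 for 0 of the 77 and for 1838 of the 19247.

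**Figure D3:**
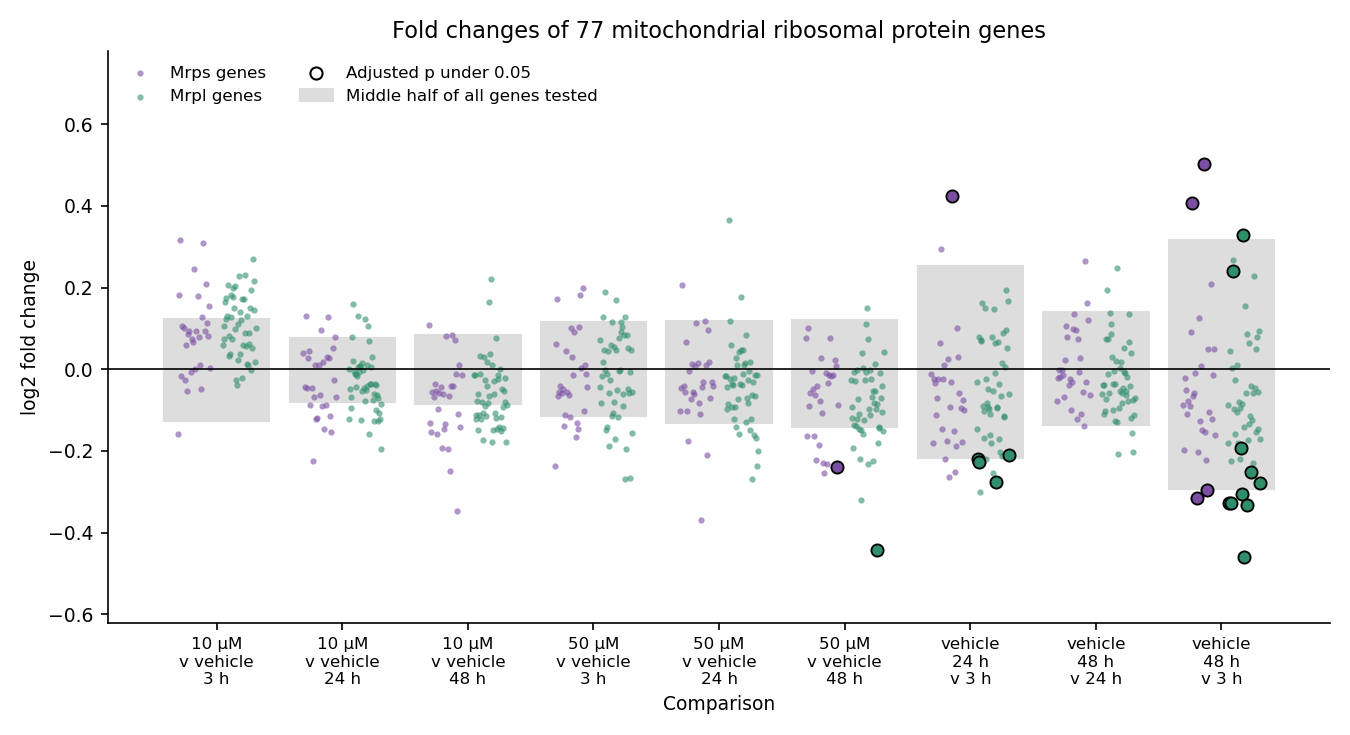
log2 fold changes of the 77 genes in the 6 comparisons of BPA with vehicle and the 3 comparisons between times in vehicle. Each point is a gene, Mrps at the left and Mrpl at the right of each comparison, outlined points have an edgeR adjusted p under 0.05, and the grey boxes span the quartiles of all genes tested. In vehicle between 3 and 48 h the points run from -0.46 to 0.50.

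In vehicle between 3 and 48 h of culture, 4 of the 77 genes rose and 10 fell (18.2%). Of all 16905 genes tested 46.7% were called, 23.9% higher and 22.9% lower. The 4 that rose were Mrps28 (bS1m), Mrps18b (mS40) and the large-subunit genes Mrpl33 (bL33m) and Mrpl17 (bL17m). The 10 that fell were the large-subunit genes Mrpl34, Mrpl39, Mrpl13, Mrpl11, Mrpl9, Mrpl32, Mrpl44 and Mrpl3 and the small-subunit genes Mrps22 and Mrps33. The median log2 fold change was -0.09, against -0.01 for all genes, and 22 of the 77 were above zero (28.6%).

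Mrpl34 fell 1.37-fold, from 31.1, 39.1, 38.5, 34.1 and 38.7 CPM at 3 h to 27.7, 27.1, 22.4, 27.0 and 27.2 CPM at 48 h. The groups did not overlap, and the log2 fold change was -0.46 ± 0.09 (edgeR adjusted p = 0.000351). At 24 h its mean lay between these, with libraries at 30.4, 24.2, 32.2, 32.9 and 31.9 CPM. Against 3 h this is -0.25 ± 0.10, which did not pass the test (edgeR adjusted p = 0.0621).

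Mrps28 rose 1.42-fold, from 10.8, 13.0, 13.4, 10.1 and 12.9 CPM at 3 h to 16.3, 19.0, 14.4, 16.6 and 18.7 CPM at 48 h. These groups did not overlap, and the log2 fold change was 0.50 ± 0.11 (edgeR adjusted p = 0.00167). Mrpl33 rose 1.26-fold, from 20.6, 24.5, 27.8, 28.0 and 25.6 CPM to 34.9, 30.2, 30.7, 28.9 and 33.8 CPM, again with no overlap. Mrpl33 shares 39946 bases with Rbks on the opposite strand, and Rbks had -0.24 ± 0.23 (edgeR adjusted p = 0.427). Mrps18b stood at 9.09, 12.5, 9.54, 6.48 and 8.72 CPM at 3 h and at 13.0, 11.99, 10.2, 12.2 and 13.5 CPM at 48 h. Mrpl17 stood at 57.2, 72.4, 54.8, 62.5 and 51.5 CPM at 3 h and at 73.8, 67.1, 64.03, 66.8 and 79.03 CPM at 48 h. For both the groups overlap, with replicate 2 of 3 h inside the range of 48 h, and the log2 fold changes were 0.41 ± 0.15 and 0.24 ± 0.09 (edgeR adjusted p = 0.0338 and 0.0397).

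Mrpl39 (mL39), near the central protuberance, stood at 46.3, 51.5, 48.9, 52.6 and 47.9 CPM at 3 h and at 37.8, 36.9, 35.8, 42.7 and 42.5 CPM at 48 h. Mrpl13 (uL13m) stood at 55.5, 53.1, 50.5, 51.5 and 59.6 CPM at 3 h and at 48.2, 42.2, 38.98, 39.4 and 45.7 CPM at 48 h. Neither gene overlapped between the times, and both fell by 0.33 on the log2 scale (edgeR adjusted p = 0.00147 and 0.00228). Mrpl13 shares 341 bases with Mtbp on the opposite strand, which fell by 0.58 ± 0.08 (edgeR adjusted p = 2.53e-05), and the part of Mtbp reads in the count of Mrpl13 was not tested.

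Mrpl11 (uL11m, in the factor-binding stalk region) stood at 41.3, 40.9, 33.3, 37.1 and 40.5 CPM at 3 h and lay between 28.8 and 34.99 CPM at 48 h (median 29.7), with 1 library of 48 h inside the range of 3 h. Mrps22 (mS22, a mitochondria-specific protein) stood at 28.3, 31.7, 31.97, 33.3 and 32.6 CPM at 3 h and at 24.4, 22.6, 24.7, 26.6 and 28.1 CPM at 48 h, with no overlap. Mrpl9 (bL9m) stood at 43.2, 48.00, 47.8, 48.3 and 50.6 CPM at 3 h and at 37.2, 42.9, 35.8, 37.9 and 41.7 CPM at 48 h, also with no overlap. These 3 and Mrpl32 (bL32m) fell by 0.28 to 0.33 on the log2 scale, with edgeR adjusted p between 0.00418 and 0.00555. Mrpl32 is matured by the protease made of Afg3l2 and Spg7. In the same comparison Afg3l2 rose by 0.32 ± 0.07 and Spg7 fell by 0.29 ± 0.08 (edgeR adjusted p = 0.000886 and 0.0074). Mrpl44, Mrpl3 and Mrps33 also fell, by 0.25, 0.19 and 0.30, with edgeR adjusted p between 0.0372 and 0.0406. Mrpl3 shares 3245 bases with Gm38077 on the same strand, which fell by 0.83 ± 0.30 (edgeR adjusted p = 0.0327). The part of Gm38077 reads in the count of Mrpl3 was not tested. On the opposite strand Mrps22 shares 1256 bases with Gm37637, and Mrpl44 shares 126 bases with Wdfy1. Gm37637 had -0.04 ± 0.21 and Wdfy1 -0.08 ± 0.08 (edgeR adjusted p = 0.882 and 0.391). Each of Mrpl44, Mrpl3 and Mrps33, as well as Mrps18b and Mrpl17, lost its call in at least 5 of the 10 fits that leave out a library, while the other 9 genes kept it in all 10.

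**Figure D4:**
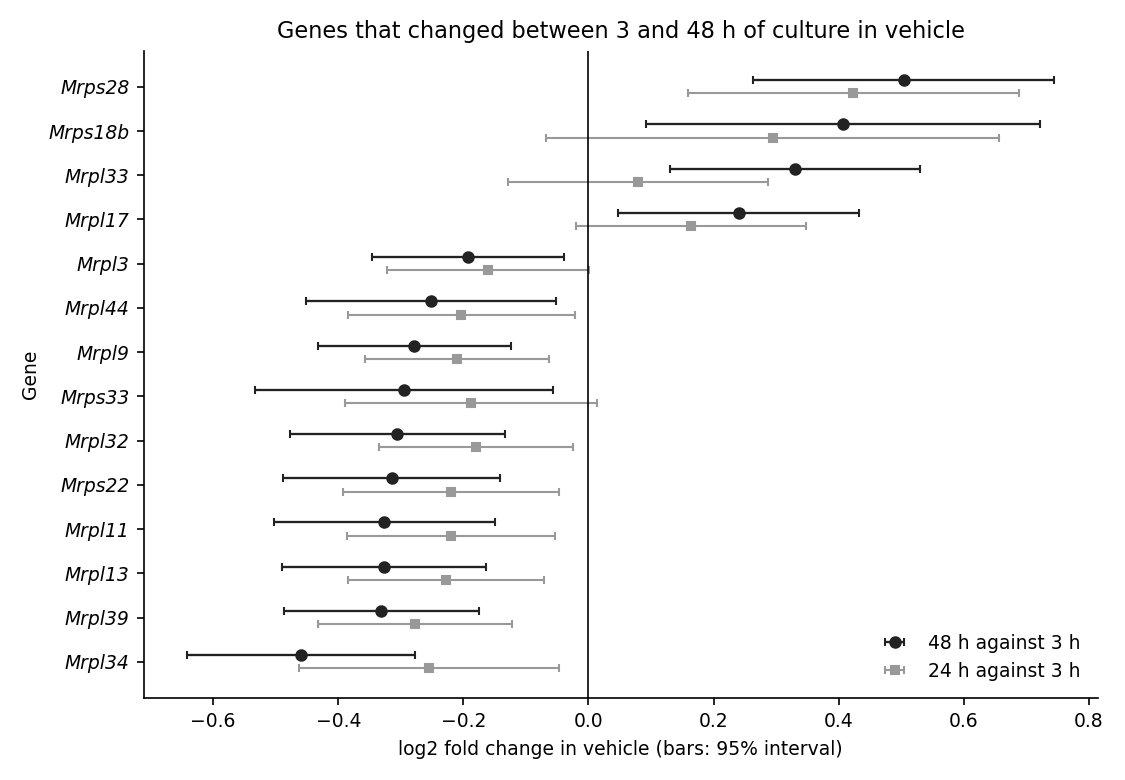
log2 fold changes in vehicle of the 14 genes called between 3 and 48 h, with 95% intervals, at 48 h (circles) and at 24 h (squares), both against the same 5 libraries of 3 h. Mrps28 has the largest rise, 0.50, and Mrpl34 the largest fall, -0.46.

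By 24 h in vehicle, 1 of the 77 genes had risen and 4 had fallen (6.49%). Of all 17081 genes tested 30% were called, 16.3% higher and 13.8% lower. Mrps28 rose by 0.42 ± 0.12 (edgeR adjusted p = 0.0178), from the 3 h values above to 16.8, 18.1, 13.3, 18.2 and 14.1 CPM, with replicate 3 inside the range of 3 h. Mrpl39, Mrpl13, Mrpl9 and Mrpl11 fell by 0.28, 0.23, 0.21 and 0.22 (edgeR adjusted p = 0.00955, 0.0285, 0.0307 and 0.045). At 24 h Mrpl39 stood at 40.9, 35.8, 39.97, 42.7 and 44.03 CPM and Mrpl9 at 42.03, 37.9, 42.9, 39.7 and 42.4 CPM, both below every library of 3 h. Mrpl13 stood at 50.9, 42.5, 47.5, 45.2 and 43.8 CPM and Mrpl11 at 34.7, 32.4, 33.6, 30.9 and 33.5 CPM, both overlapping 3 h. The count was 9 with DESeq2 or a stricter filter on low counts, 8 with median-of-ratios factors and 3 with no filter. It was between 2 and 9 when single libraries were left out. It was 9 without replicate 1 of 24 h, 2 without replicate 2 or 4 of 24 h or replicate 5 of 3 h, and 3 without replicate 5 of 24 h. The share of all genes called was not counted in these alternative fits. Between 24 and 48 h none of the 77 was called by edgeR or DESeq2, with 8.45% of 16940 genes called by edgeR. The unadjusted edgeR p was under 0.05 for 2 of the 77 and for 3626 of the 16940 in this comparison. Mrpl33 had the smallest p there, at 0.25 ± 0.08 (edgeR adjusted p = 0.0782).

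By class, 4 genes with bacterial counterparts rose and 6 fell of 46 between 3 and 48 h, and 0 rose and 4 fell of 30 mitochondria-specific genes. Their medians were -0.09 and -0.12, and a difference between the classes was not tested. Markers of several cell types differed over the same time. Of 12 cartilage markers 11 rose and 1 fell, with sums of 4546 to 5422 CPM at 3 h and 14780 to 20080 CPM at 48 h. All 15 tested muscle markers rose, all 12 limb mesenchyme markers and all 12 proliferation markers fell, and 7 of 8 tested erythroid markers fell. The part of these differences in the 14 calls was not tested.

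Symbols do not always name the subunit. Mrps18a and Mrps30 encode proteins placed in the large subunit by structures (mL66 and mL65), and Mrps36 encodes a component of the 2-oxoglutarate dehydrogenase complex instead of a ribosomal protein. With these moved, between 3 and 48 h in vehicle 2 of 26 small-subunit genes rose and 2 fell, and 2 of 50 large-subunit genes rose and 8 fell. Mrps36 stood at 6.53, 9.17, 8.07, 7.33 and 5.87 CPM in vehicle and at 4.87, 7.75, 7.36, 6.4 and 5.14 CPM in 50 µM BPA at 48 h, overlapping groups. Mrps30 stood at 35.9, 28.2, 23.8, 30.03 and 32.8 CPM in vehicle and at 32.5, 32.3, 25.7, 24.6 and 33.4 CPM in 50 µM BPA at 48 h, which overlap as well. Neither was called in any comparison.

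The relatives Mrps18a, Mrps18b and Mrps18c, which descend from the S18 protein of bacteria, are named as a family and had different levels. Per kilobase, Mrps18c (bS18m) stood at 15.4, Mrps18a at 9.32 and Mrps18b (mS40) at 5.01 CPM per kb. Their deposited lengths are 1076, 3690 and 2089 bases, and this order depends on them. In CPM Mrps18a was above Mrps18c, with 34.3 to 39.4 against 14.8 to 19.6 CPM in vehicle at 48 h. Between 3 and 48 h in vehicle the log2 fold change was -0.06 ± 0.10 for Mrps18c, 0.09 ± 0.08 for Mrps18a and 0.41 ± 0.15 for Mrps18b, and of these 3 Mrps18b alone passed the test (edgeR adjusted p = 0.626, 0.401 and 0.0338). A difference between these changes was not tested. At 48 h Mrps18c stood at 19.6, 18.2, 14.8, 16.2 and 16.8 CPM in vehicle and at 13.1, 17.5, 14.8, 13.4 and 14.9 CPM in 50 µM BPA. Mrps18a stood at 34.3, 39.4, 35.6, 35.1 and 38.9 CPM in vehicle and at 32.4, 31.4, 34.1, 33.8 and 33.1 CPM in 50 µM BPA, all of the latter below vehicle. Mrps18b in 50 µM BPA stood at 11.5, 11.2, 11.5, 11.4 and 13.1 CPM, within the range of vehicle given above. The log2 fold changes with 50 µM BPA at 48 h were -0.22 ± 0.11, -0.16 ± 0.06 and -0.06 ± 0.10 for Mrps18c, Mrps18a and Mrps18b, none of them called (edgeR adjusted p = 0.233, 0.144 and 0.781). Mrps18b overlaps an antisense gene, Gm16279, over 1837 bases. Between 3 and 48 h in vehicle Gm16279 had 0.37 ± 0.32 (edgeR adjusted p = 0.367), beside 0.41 for Mrps18b. The part of Gm16279 reads in the count of Mrps18b was not tested.

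Other members with known roles were not called in any comparison of BPA with vehicle. Mrpl12 (bL12m of the stalk, which also binds the mitochondrial RNA polymerase) stood at 24.1, 25.2, 25.2, 23.4 and 22.7 CPM in vehicle and at 19.4, 21.2, 21.96, 23.6 and 20.01 CPM in 50 µM BPA at 48 h. These groups overlap, and the log2 fold change was -0.19 ± 0.08 (edgeR adjusted p = 0.168). Mrpl10 (uL10m, the base of the stalk) stood at 41.5, 46.2, 39.9, 40.8 and 47.8 CPM in vehicle and at 41.8, 39.9, 39.8, 41.7 and 40.9 CPM in 50 µM BPA, overlapping. Mrpl41 (mL41, also described as an inhibitor of the cell cycle) stood at 26.4, 25.5, 25.9, 26.9 and 24.8 CPM in vehicle and at 20.8, 20.3, 23.7, 22.7 and 24.04 CPM in 50 µM BPA. Its groups did not overlap, but the log2 fold change of -0.22 ± 0.08 did not pass the test (edgeR adjusted p = 0.0874).

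At the catalytic and decoding sites, Mrpl3 (uL3m, near the peptidyl transferase centre) stood at 55.8, 57.6, 50.98, 57.7 and 66.1 CPM in vehicle and at 54.9, 54.3, 52.9, 50.6 and 53.5 CPM in 50 µM BPA at 48 h. Mrps12 stood at 21.3, 16.2, 16.9, 15.6 and 16.1 CPM in vehicle and at 19.96, 16.4, 19.3, 19.9 and 17.3 CPM in 50 µM BPA. Both overlapped, with log2 fold changes of -0.12 ± 0.06 and 0.10 ± 0.11 (edgeR adjusted p = 0.271 and 0.633). Mrpl44 (mL44) stood at 23.8, 20.7, 21.6, 17.7 and 20.7 CPM in vehicle and at 25.5, 22.2, 18.3, 18.9 and 21.3 CPM in 50 µM BPA, and Mrps27 (mS27) at 31.6, 29.3, 29.9, 29.2 and 29.5 CPM and at 28.8, 29.3, 31.4, 31.3 and 28.7 CPM. Mrpl45 (mL45, at the tunnel exit facing the inner membrane) stood at 40.9, 35.7, 37.98, 43.01 and 48.8 CPM in vehicle and at 44.4, 43.1, 35.1, 37.1 and 40.8 CPM in 50 µM BPA. Mrpl58 (mL62, a peptidyl-tRNA hydrolase) stood at 38.6, 33.5, 29.8, 30.4 and 32.3 CPM in vehicle and at 34.9, 30.9, 26.7, 27.6 and 29.2 CPM in 50 µM BPA. All 4 overlapped, with log2 fold changes of 0.01 ± 0.11, -0.01 ± 0.07, -0.05 ± 0.09 and -0.15 ± 0.09 for Mrpl44, Mrps27, Mrpl45 and Mrpl58.

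The genes that assemble and serve the mitochondrial ribosome were described beside its proteins, and their counts with 50 µM BPA are to be read against the 1.41%, 3.47% and 9.18% of all genes called at 3, 24 and 48 h. Of 28 assembly factors, 1 changed with 50 µM BPA at each of the 3 times, and it was Mettl17 each time, a factor needed to build the small subunit. Mettl17 stood at 31.4, 36.99, 30.96, 37.3 and 32.8 CPM in vehicle and at 21.5, 21.4, 21.0, 20.7 and 17.7 CPM in 50 µM BPA at 48 h. The groups did not overlap, and Mettl17 fell 1.67-fold, with a log2 fold change of -0.74 ± 0.08 (edgeR adjusted p = 6.93e-05).

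At 24 h Mettl17 stood at 35.7, 33.7, 41.96, 34.6 and 35.6 CPM in vehicle and at 26.8, 22.5, 22.4, 18.8 and 27.3 CPM in 50 µM BPA, a log2 fold change of -0.63 ± 0.10 (edgeR adjusted p = 0.00426). At 3 h it stood at 23.96, 32.3, 31.5, 28.6 and 28.9 CPM in vehicle and at 13.9, 25.1, 16.3, 19.4 and 20.6 CPM in 50 µM BPA, a log2 fold change of -0.62 ± 0.13 (edgeR adjusted p = 0.0278). The groups were apart at 24 h and overlapped in 1 exposed library at 3 h, where 6 of the 10 fits that leave out a library lost the call, with adjusted p up to 0.0839. At 10 µM Mettl17 was not called at any time, with libraries of 48 h at 28.7, 28.6, 28.5, 26.95 and 28.3 CPM, all below vehicle (-0.27 ± 0.07, edgeR adjusted p = 0.479). It was lower in 50 than in 10 µM BPA at 3 h (-0.53 ± 0.11, edgeR adjusted p = 0.0088) and at 48 h (-0.46 ± 0.11, edgeR adjusted p = 0.0112). The call at 3 h was lost without replicate 3 of 10 µM BPA, the library that stood apart (-0.45 ± 0.11, adjusted p = 0.0608), and without replicate 1 of 50 µM BPA (adjusted p = 0.0713).

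Both mitochondrial ribosomal RNAs rose with 50 µM BPA at all 3 times. At 48 h mt-Rnr1, the small ribosomal RNA, stood at 377, 283, 289, 309 and 319 CPM in vehicle and at 1104, 720, 555, 607 and 680 CPM in 50 µM BPA. The log2 fold change was 1.21 ± 0.15 (edgeR adjusted p = 0.000102). The large ribosomal RNA mt-Rnr2 had log2 fold changes of 0.58 ± 0.11, 0.45 ± 0.09 and 0.68 ± 0.15 at 3, 24 and 48 h (edgeR adjusted p = 0.0101, 0.0123 and 0.00757). The libraries were made from RNA caught on poly-T beads, so the level of these RNAs depends also on their A-tails. The part of that in the rise was not tested. Other mitochondrially encoded RNAs were called with 50 µM BPA too. At 3 h mt-Nd1, mt-Nd4, mt-Nd6 and mt-Cytb fell, by 0.38, 0.45, 0.57 and 0.49 on the log2 scale. At 24 h mt-Nd6 and mt-Cytb fell by 0.52 and 0.46. At 48 h mt-Nd6 fell by 0.46 and mt-Co1 rose by 0.45.

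**Figure D5:**
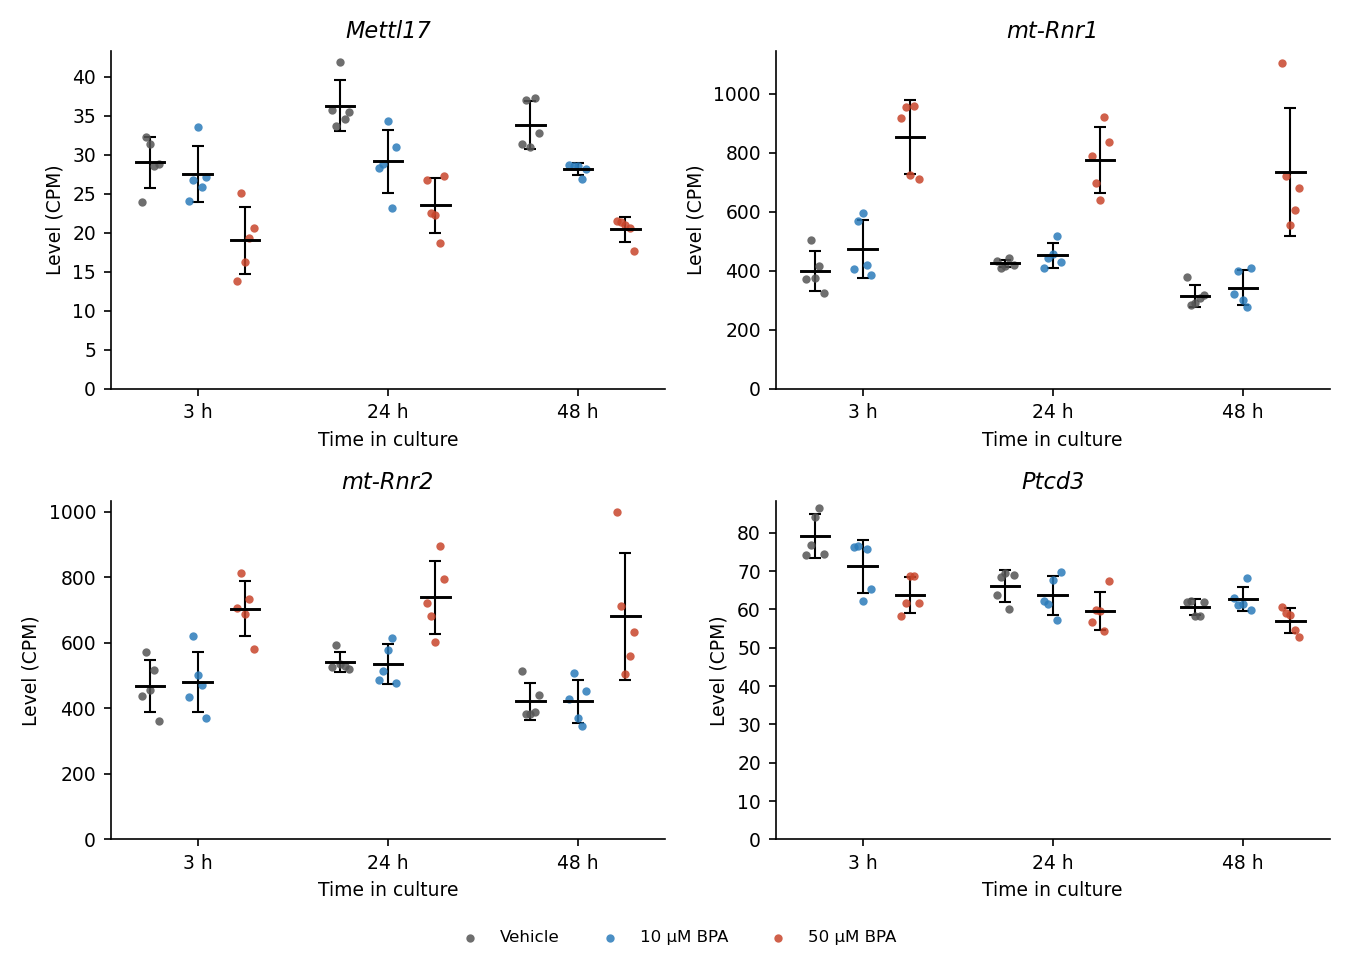
Level in CPM of Mettl17, of the ribosomal RNAs mt-Rnr1 and mt-Rnr2 and of Ptcd3 in every library, by time in culture and treatment. Points are libraries, lines are group means and bars are ± 1 SD (n = 5). At 48 h Mettl17 averages 33.9 CPM in vehicle, 28.2 in 10 µM and 20.5 in 50 µM BPA.

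Among 5 ribosomal proteins with other symbols, Ptcd3 (mS39), which holds messenger RNA at the entry of the small subunit, was the only gene called with 50 µM BPA. At 3 h it fell from 74.2, 76.9, 84.01, 86.5 and 74.5 CPM to 58.4, 61.6, 68.7, 68.6 and 61.7 CPM, a log2 fold change of -0.32 ± 0.07 (edgeR adjusted p = 0.0412) with no overlap. It was not called at 24 or 48 h. In vehicle Ptcd3 fell between 3 and 48 h by 0.38 ± 0.07 (edgeR adjusted p = 0.000185).

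Of 20 mitochondrial aminoacyl-tRNA synthetase genes and their helpers, 50 µM BPA lowered Qrsl1, a subunit of the glutamyl-tRNA amidotransferase, at 3 and 24 h (-0.47 ± 0.11 and -0.44 ± 0.11, edgeR adjusted p = 0.0407 and 0.0383). At 48 h it raised Wars2, the tryptophanyl-tRNA synthetase (0.25 ± 0.07, edgeR adjusted p = 0.0438). None of 16 tested translation factors was called with 50 µM BPA by edgeR at any time. Of 15 genes of mitochondrial transcription and DNA upkeep 1 changed at 48 h, Polg, the DNA polymerase, which fell by 0.26 ± 0.06 (edgeR adjusted p = 0.0116). Polg shares 4034 bases with Fanci on the opposite strand, and Fanci had -0.15 ± 0.15 (edgeR adjusted p = 0.617). Of 14 chaperones and proteases 1 changed at 48 h, Hspa9, which rose by 0.20 ± 0.06 (edgeR adjusted p = 0.0354). None of 10 regulators of mitochondrial biogenesis was called with 50 µM BPA at any time.

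In vehicle between 3 and 48 h, where 46.7% of all genes tested were called, 3 of 28 assembly factors rose and 8 fell, led by Ybey (-0.92 ± 0.15), Nsun3 (-0.68 ± 0.10) and Gtpbp10 (-0.43 ± 0.08). Of 15 transcription and DNA genes 6 fell and none rose, led by Twnk, the helicase (-0.51 ± 0.07), Tfam (-0.37 ± 0.07) and Mgme1 (-0.41 ± 0.09). Of 16 translation factors 5 fell, among them the elongation factor Tufm (-0.30 ± 0.07). Of 10 biogenesis regulators 4 rose and 3 fell. Pprc1 rose by 0.72 ± 0.07 and Myc by 0.65 ± 0.11, while Gabpb1, a subunit of the factor GABP, fell by 0.45 ± 0.07, and each of the genes named here had an edgeR adjusted p under the threshold of 0.05.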

How the data were processed

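Libraries were made from RNA selected on poly-T beads, with random-primed cDNA and PCR, per the labels' protocols. The authors deposited 9 tables, each comparing 2 groups of 5 libraries, with whole-number read counts per gene. CASAVA 1.8, STAR 2.5, HTSeq 0.6.1, DESeq2 2 and build mm10 are named without roles, per the submitters' processing notes. The deposited tables also hold FPKM, a normalised signal (the count divided by a size factor), a log2 fold change and a p-value for each gene, per the file headers, none of which was used in a result. Counts of a library were equal in every table (2657735 values compared, 0 unequal), and 0 of the value columns could not be tied to a sample. For the 50 µM libraries of 3 h, and in the treatment text, the labels give times that differ from the titles, and titles were followed.

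The 77 genes, the other lists and the tests were chosen with earlier results of these data known, and the split into genes with bacterial counterparts and mitochondria-specific genes was added after seeing the data. It is a description from known structures. The 4 pseudogenes of matching symbol were left out. Reads of these pseudogenes and of overlapping genes may be shared, and 37 of the 77 genes overlap another listed gene, 30 of them on the opposite strand.

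Each comparison with vehicle or between times was fitted on its 10 libraries with edgeR 4.0.16 in R 4.3.3 (quasi-likelihood test, TMM, filterByExpr with minimum count 10 and minimum total 15, Benjamini-Hochberg over all genes tested, threshold 0.05). Comparisons between doses and interaction terms came from a fit of all 45 libraries. Standard errors were taken from the log2 fold change and the F statistic. CPM use TMM factors over 45 libraries. The tests were also tried on simulated data, and the outcome is not given here. All members could be named. Values in every library were given for up to 6 called members of smallest p per direction and for a fixed set with known roles, and from other lists up to 3 called genes of smallest p per comparison. Mrps25 and Mrpl23 at 48 h, Mrpl48 in 10 µM BPA, Mrpl54, Afg3l2 and Spg7 were chosen after their values were seen. Protein sequences were not used here. Alternatives were DESeq2 1.42.0, other size factors and filters, a replicate block, an epidermis covariate, other sets of libraries in the fit and leaving out each library. The labels do not state that replicate numbers pair libraries. For 50 µM BPA and vehicle at 48 h alone, all 5 correlations of same-numbered deviations were over 0.1, a limit chosen here. Counts of PCR reads are not independent molecules.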

Additional observations from a re-analysis of the deposited data

Results flagged for a closer look

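A single library lay far from the other 4 of its group, by Dixon's ratio above 0.71, in 17 of 297 groups of 5 looked at (5.72%). These groups cover the summed levels, the members named with values and Mettl17, mt-Rnr1 and mt-Rnr2, and chance flags about 1 in 20. In vehicle at 24 h, replicate 2 was lowest for Mrpl34 (24.2 CPM, others 30.4 to 32.9) and Mrpl44 (19.5 CPM, others 22.0 to 22.3) and highest for mt-Rnr2 (595 CPM, others 520 to 536), and replicate 3 was highest for Mettl17 (41.96 CPM, others 33.7 to 35.7). In vehicle at 48 h, replicate 1 was highest for Mrps12 (21.3 CPM, others 15.6 to 16.9) and Mrps27 (31.6 CPM, others 29.2 to 29.9), replicate 5 was highest for Mrpl32 (25.5 CPM, others 21.2 to 22.0), and replicate 3 was lowest for Mrpl34 (22.4 CPM, others 27.0 to 27.7).

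In 10 µM BPA at 3 h, replicate 3 was highest for Mrpl58 (49.7 CPM, others 33.2 to 37.7) and Mrps12 (28.7 CPM, others 19.1 to 21.2). In 10 µM BPA, Mrps7 was high in replicate 1 at 24 h (50.2 CPM, others 38.8 to 41.96), Mrps30 was low in replicate 3 at 48 h (23.8 CPM, others 29.8 to 31.8), and Mettl17 was low in replicate 4 at 48 h (27.0 CPM, others 28.3 to 28.7). In 50 µM BPA, Mrpl13 was low in replicate 3 at 3 h (49.6 CPM, others 55.2 to 57.3) and Mrpl34 was high in replicate 1 at 24 h (43.2 CPM, others 30.1 to 33.3). In 50 µM BPA at 48 h, replicate 5 was highest for Mrps18b (13.1 CPM, others 11.2 to 11.5) and lowest for Mettl17 (17.7 CPM, others 20.7 to 21.5).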

How the results depend on the processing

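The direction of single genes was checked for 130 results that were called in the main fits. Of 2327 alternative values for these results, 2042 kept their side of the threshold, 285 lost the call and 0 reversed. Genes named here without a call in the main fits, and the markers of cell types and stress, were not part of this check. Among the counts of members called, 50 µM BPA at 48 h gave 2, 1 without the filter on low counts, 1 in a fit of all 45 libraries and 4 with the replicate block. Leaving out single libraries gave 1 to 3. At 24 h with 50 µM BPA the block gave 2 (Mrpl14 higher, Mrps28 lower), and leaving out libraries gave 0 to 1. In vehicle at 24 against 3 h, DESeq2 gave 9, median-of-ratios factors 8, no filter 3, the stricter filter (1 CPM in 5 libraries) 9, the replicate block 1, and leaving out libraries 2 to 9. In vehicle at 48 against 3 h, leaving out libraries gave 10 to 15. Between doses at 3 h, DESeq2 gave 1 and the block 1 (Mrpl54 both times). Between doses at 48 h, no filter gave 0 and leaving out libraries 0 to 1. The share of all genes called was counted in the main fits alone, so the counts of the alternatives have no such share beside them. The causes of these moves were not tested. Outside 50 µM BPA against vehicle at 48 h, 1 to 4 of the 5 correlations of equal replicate numbers were over 0.1. Among these other comparisons, each library correlated best with its own number in 10 of 10 cases only for 10 µM BPA at 24 h. Whether equal numbers pair libraries in any comparison is not stated in the labels. For 10 µM BPA at 48 h, titles and codes number replicates 1 and 2 in opposite order, and the block gave 0 with either numbering. No other count of members moved by more than 1.5 times under the block.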
